A study of Homo sapiens with 17 samples.

Results

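The transcripts of 9 tumor suppressor genes whose promoters are often methylated in colon cancer were followed in YB5 cells exposed to toyocamycin: CDKN2A, SFRP1, SFRP2, RUNX3, SOCS1, CACNA1G, MGMT, TIMP3 and HIC1. The genes were chosen by name, and all 9 were found among the 19141 genes of the count table through their gene identifiers. YB5 was made from the human colon cancer line SW48, and in it a viral promoter in front of a green fluorescent protein reporter is methylated and silent. Toyocamycin is an adenosine analog isolated from Streptomyces that the study examined as an inhibitor of CDK9, a kinase that releases paused RNA polymerase II. Poly(A) RNA was sequenced from cells given DMSO (8 libraries) or 250 nM toyocamycin (9 libraries). The DMSO arm held 2 libraries at 2 h, 1 each at 10, 24 and 48 h and 3 at the last time point, which is 72 h in the labels and longer in the text of the study. The toyocamycin arm held the same numbers, except for 2 libraries at 10 h. All 17 libraries came from this 1 line, and the RNA data carry no methylation measurement, so whether these promoters were methylated in these cultures was not measured. By pyrosequencing, the study found no change in methylation of the reporter promoter or of LINE-1 repeats in YB5 cells on toyocamycin. The promoters of the 9 genes were not among the sites it read.

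In many colon tumors, methyl groups are added to CpG dinucleotides in the CpG island around the start of such a gene, repressive chromatin forms over it, and its transcript is lost. CDKN2A encodes the cell cycle inhibitor p16 and, from an upstream start, the p53 activator ARF. SFRP1 and SFRP2 encode secreted proteins that bind Wnt ligands and hold back Wnt signaling, and RUNX3 encodes a transcription factor that acts downstream of TGF-beta. SOCS1 is a feedback inhibitor of JAK and STAT signaling, CACNA1G is a T-type calcium channel subunit whose promoter is used as a marker of the CpG island methylator phenotype, and MGMT repairs alkylated guanine in DNA. TIMP3 inhibits matrix metalloproteinases, and HIC1 is a transcriptional repressor that p53 activates. The question put to the data was whether the transcript of any of these genes appears or rises on the drug.

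The CpG density of a promoter is the feature that the methylation of these genes acts on, so the 250 bases before the start of a few genes are shown first, with every CpG in capitals. RefSeq promoters (GRCh38.p14, each read 5′ to 3′ on the strand of its gene) were available here for 6 of the 9 genes and 8 starts. They held 11 to 36 CpG, with a median of 25, beside a median of 11 over 35116 promoters of 27305 genes. The 4 promoters below are those of MGMT and SFRP2, which had no count in any DMSO library, of p16, the start of the gene with the highest level per length in DMSO, and of the inner of the 2 starts of RUNX3.

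MGMT, chr10:129466991-129467240, + strand: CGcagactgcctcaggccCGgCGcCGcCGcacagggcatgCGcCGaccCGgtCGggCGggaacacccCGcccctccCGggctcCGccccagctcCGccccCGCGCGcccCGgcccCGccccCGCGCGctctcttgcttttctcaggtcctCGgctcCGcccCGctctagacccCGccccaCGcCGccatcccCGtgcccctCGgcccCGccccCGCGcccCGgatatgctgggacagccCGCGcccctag
SFRP2, chr4:153789084-153789333, - strand: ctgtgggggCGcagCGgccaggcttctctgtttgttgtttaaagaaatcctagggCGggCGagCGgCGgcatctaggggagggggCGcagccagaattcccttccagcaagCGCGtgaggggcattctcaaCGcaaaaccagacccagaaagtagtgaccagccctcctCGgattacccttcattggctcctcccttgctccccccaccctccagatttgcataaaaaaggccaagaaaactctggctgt
CDKN2A (p16), chr9:21974858-21975107, - strand: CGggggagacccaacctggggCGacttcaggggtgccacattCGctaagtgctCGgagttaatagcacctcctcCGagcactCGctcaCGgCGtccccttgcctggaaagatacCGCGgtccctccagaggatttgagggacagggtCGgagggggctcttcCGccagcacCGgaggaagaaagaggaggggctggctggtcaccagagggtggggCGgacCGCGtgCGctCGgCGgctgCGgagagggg
RUNX3, chr1:24930277-24930526, - strand: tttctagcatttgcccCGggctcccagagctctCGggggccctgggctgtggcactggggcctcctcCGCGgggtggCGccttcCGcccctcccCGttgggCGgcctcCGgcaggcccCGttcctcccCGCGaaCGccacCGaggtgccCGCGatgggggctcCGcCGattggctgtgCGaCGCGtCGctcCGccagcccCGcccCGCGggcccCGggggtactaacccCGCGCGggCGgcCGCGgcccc

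The MGMT promoter held 36 CpG, a number that 4.85% of all promoters of this length reached, and the inner RUNX3 promoter held 33, reached by 8.15%. The p16 promoter held 20, reached by 32.5% of all promoters, and the SFRP2 promoter held 11, reached by 50.3%. Of the starts not shown, SOCS1 held 27 CpG, TIMP3 held 26, the ARF start of CDKN2A held 24 and the outer RUNX3 start held 13. These densities describe the sequence and carry no reading of its methylation.

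The libraries held 8735465 to 22121364 counts. The library of replicate 2 at 10 h on toyocamycin stood apart from the others: it had the lowest total, a count in 18654 genes where the other libraries had one in 13434 to 16549, and 6.55% mitochondrial counts beside 0.917% to 3.49% elsewhere. By the labels, replicate 2 of both arms at 2 and 10 h formed a second batch, and all other libraries a first one. Keratins 8 and 18, CDH1, EPCAM and CDX2, of 12 listed markers of colon epithelium, had at least 1319 counts each in every DMSO library. Of the 12, 9 to 11 had more than 3 counts in each DMSO library. Some were low: in DMSO at the last time point KRT20 and LGALS4 each had 1, 0 and 1 counts, and GPA33 had 8, 7 and 9. On toyocamycin at the last time point, 7 of 11 tested epithelial markers were called lower and 2 higher, beside 41.9% and 47% of all genes tested. The summed level of the 12 listed was 561 to 589 CPM (counts scaled to the TMM-adjusted size of the library) beside 6109 to 7062 in DMSO. Keratins 8 and 18 weigh most in this sum, with means of 268 and 34.9 CPM beside 4293 and 1215. The 2 called higher were LGALS4, with 25, 36 and 61 counts, and CDX2, at 104 ± 9.04 CPM beside 69.6 ± 12.4 (SD, n = 3). Of 10 fibroblast markers, 2 to 7 had more than 3 counts in those toyocamycin libraries beside 1 or 2 in DMSO, and their summed level was 3.21 to 22.8 CPM beside 0.511 to 1.19; of 10 leukocyte markers it was 6 to 8 beside 1 or 2, at 32.1 to 34.9 beside 0.557 to 0.842; and of 7 endothelial markers it was 3 to 6 beside 2, at 3.89 to 6.78 beside 0.472 to 0.697. CD14 had 162, 151 and 196 counts beside 3, 0 and 3 and PECAM1 12, 23 and 34 beside 0 in each, while PTPRC, the marker that defines leukocytes, had 0, 4 and 4 beside 5, 0 and 0. The part of these shifts in the values below was not tested, and in bulk RNA fewer cells making a transcript and less of it per cell cannot be told apart.

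In DMSO the 9 genes differed in level when compared per length, as CPM divided by the kilobases of annotated exon. CDKN2A was highest at 1.20 ± 0.293 (SD, n = 8 libraries over all times), SOCS1 was at 0.522 ± 0.274 and HIC1 at 0.172 ± 0.0942. Neighbours in this order overlapped: the lowest CDKN2A library, at 0.754, lay below the highest SOCS1 library, at 0.941, and the lowest SOCS1 library, at 0.182, lay below the highest HIC1 library, at 0.350. TIMP3 at 0.0292 ± 0.0321, RUNX3 at 0.0231 ± 0.0208, CACNA1G at 0.00873 ± 0.0098 and SFRP1 at 0.00823 ± 0.0101 each had a library with no count, so their order does not hold against the spread. SFRP2 and MGMT had 0 counts in all 8 DMSO libraries, where 3 counts, the limit that a count of 0 allows, correspond to 0.117 to 0.154 CPM. With silent defined as at most 3 counts in each DMSO library, SFRP1, SFRP2 and MGMT were silent, 3 of the 9 genes, beside 5490 of the 19141 genes of the table (28.7%).

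**Figure D1:**
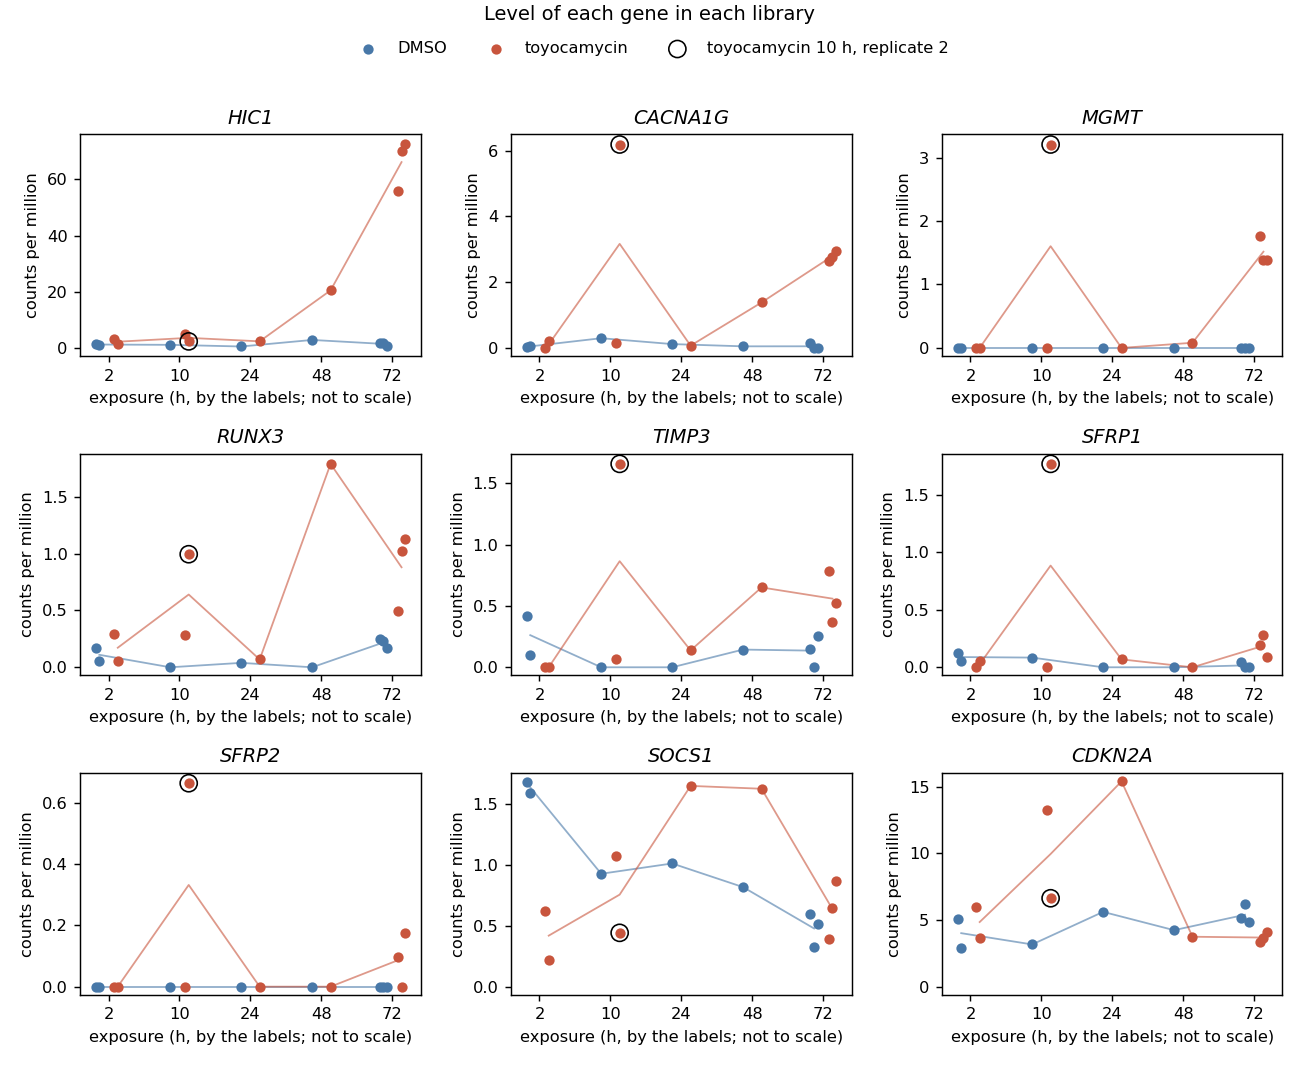
Level of the 9 genes in each of the 17 libraries, as CPM (vertical axis, a scale of its own per gene) against exposure in h (times evenly spaced). Points are libraries, lines join the means of an arm, and the ring marks replicate 2 of toyocamycin at 10 h, the highest library of CACNA1G, MGMT, TIMP3, SFRP1 and SFRP2. HIC1 rises from 20.5 at 48 h to between 55.8 and 72.5 at the last time point.

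At the last time point, 3 libraries an arm, HIC1, CACNA1G and MGMT separated most from DMSO. HIC1 had 568, 758 and 834 counts on toyocamycin beside 38, 38 and 15 in DMSO. Every toyocamycin library thus lay far above every DMSO library, and HIC1 was at 66.2 ± 9.04 beside 1.43 ± 0.684 CPM (SD, n = 3). It rose with a log2 fold change of 5.58 (SE 0.326, adjusted p = 2.60e-10, edgeR quasi-likelihood test). HIC1 was not silent in DMSO, with 13 to 59 counts per library, so this is a rise of a transcript present at a low level. HIC1 (chr17:2054154-2063241, + strand) shares exon sequence with SMG6 on the other strand, and the strand setting of the counting is not stated in the sources used here. SMG6, a nonsense-mediated decay factor, had 288, 274 and 294 counts on toyocamycin and 639, 628 and 721 in DMSO and did not pass the test (log2 fold change -0.18, SE 0.126, adjusted p = 0.189, edgeR).

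CACNA1G (chr17:50560715-50627474, + strand) had 27, 30 and 34 counts on toyocamycin beside 3, 0 and 0 in DMSO. The arms did not overlap, and the level was 2.80 ± 0.151 CPM beside 0.0496 ± 0.0858 (SD, n = 3). With 3 counts in the whole DMSO arm, the ratio of 60.7 has a counting interval (exact, 95%) of 20.1 to 300; the adjusted p was 3.12e-06 (edgeR). Such intervals cover counting error only.

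MGMT (chr10:129467190-129770983, + strand) was the 1 silent gene of the 3 with more than 3 counts in every toyocamycin library of the last time point. It had 18, 15 and 16 counts there and 0 in each DMSO library, and so was at least 10.9-fold higher than a floor of 3 counts per library (1.52 ± 0.219 CPM, SD, n = 3; adjusted p = 1.26e-05, edgeR). Its 49 counts summed over the 3 libraries exceeded those of 89.4% of the genes silent in DMSO, whose median sum was 3 and of which 26% stayed at 0. Counting of such genes was common: of the 5490 silent genes, 1195 (21.8%) had more than 3 counts in every toyocamycin library at this time.

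RUNX3 and TIMP3 passed the test with few counts. RUNX3 (chr1:24899511-24965121, - strand) had 5, 11 and 13 counts beside 5, 5 and 4, which overlap as counts and separate once scaled to the smaller toyocamycin libraries, at 0.491 to 1.13 beside 0.172 to 0.248 CPM (log2 fold change 2.04, SE 0.597, adjusted p = 0.00491, edgeR). TIMP3 (chr22:32801705-32863041, + strand) had 8, 4 and 6 counts beside 3, 0 and 6 and separated in the same way, at 0.371 to 0.786 beside 0 to 0.258 CPM (log2 fold change 1.99, SE 0.825, adjusted p = 0.0355, edgeR). TIMP3 lies in an intron of SYN3, a synapsin gene on the other strand, which had 14, 30 and 16 counts beside 6, 2 and 10 and was also higher (log2 fold change 2.75, SE 0.575, adjusted p = 3.62e-04, edgeR). Both calls rest on the scaling: with scaling on the 13 mitochondrially encoded genes the adjusted p was 0.253 for RUNX3 and 0.278 for TIMP3, and with library size alone it was 0.126 for TIMP3 (edgeR). In a fit of all 17 libraries, the adjusted p was 0.107 for RUNX3 and 0.241 for TIMP3 (edgeR).

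The Wnt antagonists SFRP1 and SFRP2 stayed at or below 3 counts in every library of the last time point. SFRP1 (chr8:41261962-41309473, - strand) had 2, 3 and 1 counts on toyocamycin beside 1, 0 and 0, and SFRP2 (chr4:153780591-153789083, - strand) had 1, 0 and 2 beside 0 in each DMSO library. Neither gene passed the filter on low counts, so neither was tested. Without a filter both were called higher, SFRP1 with an adjusted p of 0.0520 and SFRP2 with 0.0874 (edgeR), beside 46% of all genes in that fit, on 6 and 3 counts summed over the toyocamycin libraries. SFRP1 was also called with batch as a term (adjusted p = 0.0893) and was not in a fit of all 17 libraries (adjusted p = 0.170, edgeR). Of the silent genes of the table, 58.5% had fewer summed counts than SFRP1 in these libraries and 45.1% had fewer than SFRP2.

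CDKN2A (chr9:21967752-21995301, - strand) was the 1 gene called lower. It had 34, 39 and 47 counts on toyocamycin beside 104, 133 and 113, or 3.68 ± 0.376 CPM beside 5.39 ± 0.695 (SD, n = 3). The arms did not overlap, yet the log2 fold change was -0.52 (SE 0.263, adjusted p = 0.0788, edgeR), and it did not pass the test with DESeq2 size factors (log2 fold change -0.19, adjusted p = 0.498) or without replicate 1 or 2 of either arm (-0.41 to -0.55, adjusted p = 0.103 to 0.214, edgeR). It was lower by more with library size alone (-1.11, adjusted p = 0.00103) and mitochondrial scaling (-1.60, adjusted p = 0.00146), and stayed called with batch as a term (-0.55, adjusted p = 0.0238, edgeR). The counts of p16 and ARF are not separated in this table. SOCS1 (chr16:11254417-11256204, - strand) had 4, 7 and 10 counts beside 12, 7 and 12, overlapped between arms and did not pass the test (log2 fold change 0.46, SE 0.507, adjusted p = 0.401, edgeR). Its sign changed with the scaling, to -0.14 with library size alone and -0.61 with mitochondrial scaling. SOCS1 lies within RMI2 on the other strand, a gene of DNA repair with 63, 47 and 60 counts beside 432, 406 and 404.

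At the last time point 5 of the 7 genes tested were called higher and 1 lower, and 47% and 41.9% of all 14491 genes tested were. CACNA1G, MGMT, RUNX3 and TIMP3 reached the limit of the filter, 0.552 CPM by the library total alone, in toyocamycin libraries only, so a call of these 4 could hardly fall in the other direction, and their count supports nothing: of the 2241 genes that entered in this way, 2190 were called higher. HIC1, CDKN2A and SOCS1 reached it in a DMSO library as well, and of these 3 genes 1 was called higher and 1 lower, beside 37.7% and 49.5% of the 12250 genes that did so. Over all 9 genes, with every arm mean raised to the floor, the median log2 ratio was 1.01, beside 0 for all 19141 genes. The scaling shifts all genes: the median log2 fold change of the genes tested was 0.18 with TMM, 0.50 with DESeq2 size factors, -0.42 with library size alone and -0.89 with mitochondrial scaling. HIC1, CACNA1G and MGMT were called higher under each of these 4 scalings, and HIC1 stayed at 4.42 or above.

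**Figure D2:**
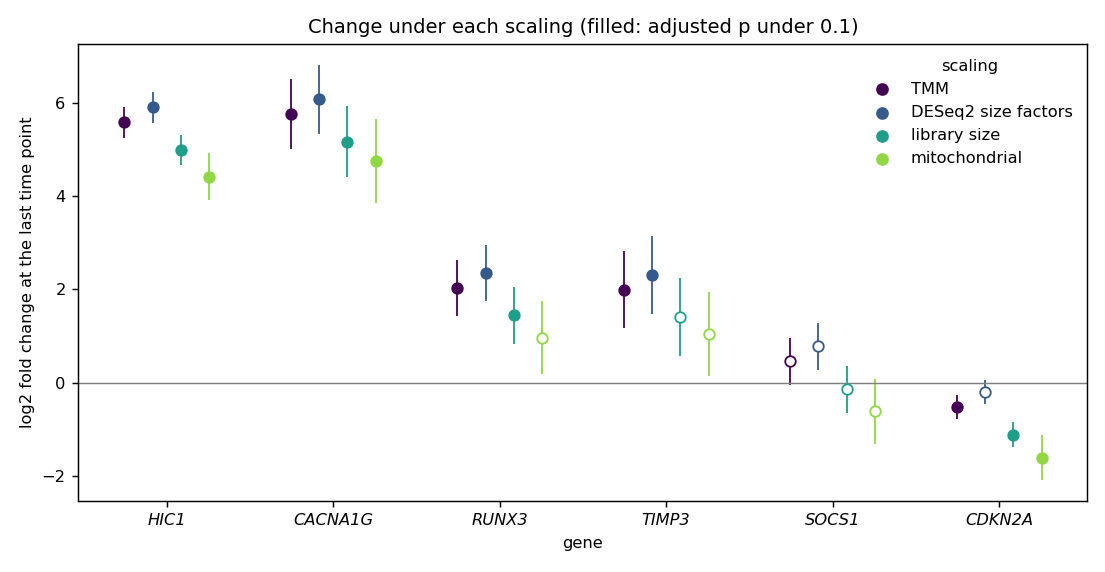
Log2 fold change of toyocamycin over DMSO at the last time point (vertical axis) for the tested genes with DMSO counts (horizontal axis) under 4 scalings, with bars of 1 SE and filled points for an adjusted p under 0.1. HIC1 and CACNA1G stay far above 0, while SOCS1 moves from 0.78 with DESeq2 size factors to -0.61 with mitochondrial scaling.

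At 2 h, with 2 libraries an arm, SOCS1 was the 1 gene called. It had 15 and 4 counts on toyocamycin beside 40 and 31 in DMSO, with no overlap, and fell from 1.64 ± 0.0631 to 0.419 ± 0.286 CPM (SD, n = 2; log2 fold change -1.89, SE 0.502, adjusted p = 0.0314, edgeR). Among all genes tested, 8.42% were called lower and 0.518% higher at this time. The call was lost without replicate 2 of toyocamycin (log2 fold change -1.39, adjusted p = 0.245, edgeR) and in a fit of all 17 libraries (-1.92, adjusted p = 0.321, edgeR). TIMP3 had 0 counts in both toyocamycin libraries and 10 and 2 in DMSO, at least 1.83-fold lower, which did not pass the test (adjusted p = 0.123, edgeR). The DMSO library with 10 counts also had 192 counts of the fibroblast collagen COL1A1, beside 45 in the other DMSO library and 29 and 31 on toyocamycin; the part of this in the TIMP3 difference was not tested. At the last time point COL1A1 had 5, 133 and 15 counts on toyocamycin, and TIMP3 had 8, 4 and 6 in the same libraries. A relation between these counts was not tested either. HIC1 had 74 and 25 counts beside 34 and 19 and did not pass the test (log2 fold change 0.89, adjusted p = 0.369, edgeR), but was called with the replicate number, which at 2 h is also the batch, as a block (0.83, adjusted p = 0.0914), a fit in which 8.72% of all genes were called higher and 18.7% lower.

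At 10 h the result depended on which toyocamycin library was read. CDKN2A had 186 and 60 counts in replicates 1 and 2, beside 75 in the 1 DMSO library, and was called higher (log2 fold change 1.67, SE 0.451, adjusted p = 0.00877, edgeR). HIC1 had 68 and 21 counts beside 26 (log2 fold change 1.75, SE 0.598, adjusted p = 0.0312, edgeR), and RUNX3 had 4 and 9 beside 0 (adjusted p = 0.0571, edgeR). The 2 toyocamycin libraries lay on the same side of DMSO in CPM for these genes, and 20.4% of the 16521 genes tested in that fit were called higher and 24.4% lower. SOCS1 had 15 and 4 counts beside 22 and did not pass the test (log2 fold change -0.26, adjusted p = 0.831, edgeR). The other 5 genes were counted in replicate 2 alone or mostly so. There MGMT had 29 counts, CACNA1G 56, SFRP1 16, SFRP2 6 and TIMP3 15, while replicate 1 had 0, 2, 0, 0 and 1 and the DMSO library had 0, 7, 2, 0 and 0. In that library 73.2% of the genes silent in DMSO had more than 3 counts, beside 5.70% in replicate 1 and 28.9% to 31.5% at the last time point. In that library 38.7% of these genes had fewer counts than SFRP2 and 93.3% had fewer than MGMT. No gene of the 9 stayed called higher at 10 h with mitochondrial scaling, under which the median log2 fold change of all genes tested was -0.70. Leaving out 1 of the 2 toyocamycin libraries left 1 an arm, so the spread came from the other groups and only sizes are given. Without replicate 1 the comparison lay within batch 2. Without replicate 2 it set a toyocamycin library of batch 1 against a DMSO library of batch 2. Drug and batch cannot be told apart there. The log2 fold change of CACNA1G was 4.36 without replicate 1 and -1.01 without replicate 2. Over these 2 fits it ran from 1.07 to 2.07 for CDKN2A and from 1.08 to 2.15 for HIC1.

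**Figure D3:**
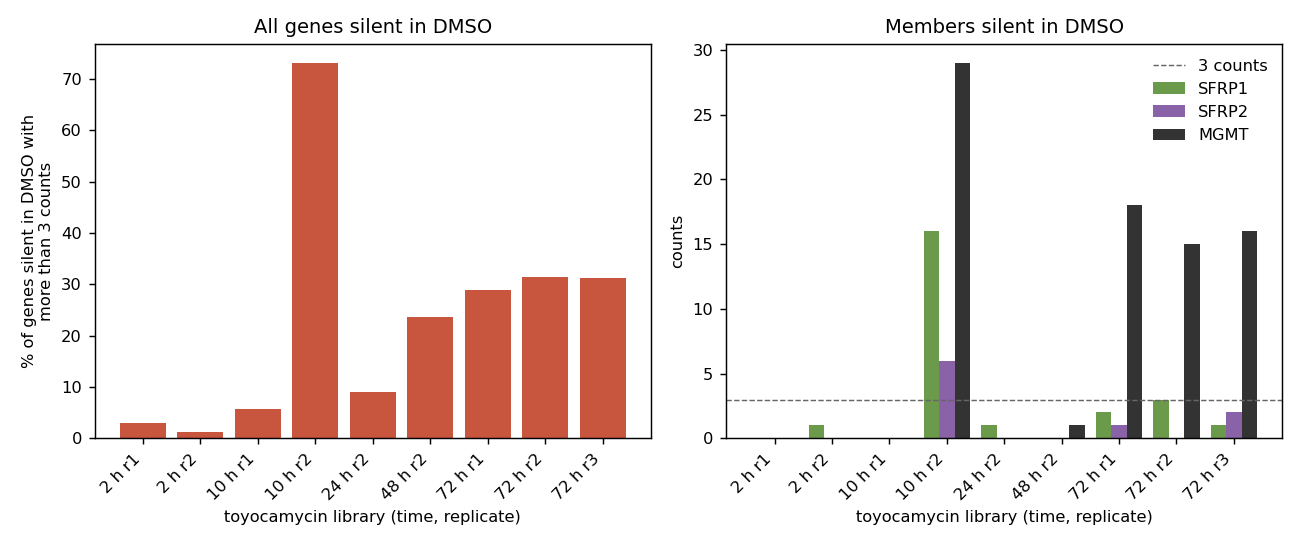
Left, the percentage of the 5490 genes silent in DMSO that had more than 3 counts in each toyocamycin library (horizontal axis, time and replicate); right, the counts of SFRP1, SFRP2 and MGMT in the same libraries, with a dashed line at 3 counts. Replicate 2 at 10 h reaches 73.2%, and MGMT is over the line there and in the 3 libraries of the last time point.

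At 24 and 48 h each arm had 1 library, and the spread in the test came from the replicates of the other times. At 24 h CDKN2A had 224 counts beside 144 (log2 fold change 1.47, SE 0.403, adjusted p = 0.00581, edgeR) and HIC1 had 34 beside 13 (2.21, SE 0.731, adjusted p = 0.0178, edgeR), beside 30.7% of all genes called higher and 32% lower. Neither call held with library size alone (0.46 and 1.20) or with mitochondrial scaling, which turned both to below 0 (-0.80 and -0.051). These scalings shifted all genes: the median log2 fold change of the genes tested was -0.91 and -2.16, beside 0 with TMM. SOCS1 had 24 counts beside 26, and each of the other genes had 0 to 3 counts in each library at 24 h.

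At 48 h HIC1 had 252 counts on toyocamycin beside 59 in DMSO (log2 fold change 2.87, SE 0.511, adjusted p = 1.57e-04, edgeR). CACNA1G had 17 counts beside 1, a ratio of 28.7 with a counting interval of 4.50 to 1201 (adjusted p = 0.00819, edgeR), and RUNX3 had 22 beside 0, at least 12.4-fold higher (adjusted p = 6.18e-04, edgeR). These 3 of the 7 genes tested were called higher and none lower, beside 39.2% and 35.5% of all genes. HIC1 alone of these 3 reached the filter in a DMSO library. With mitochondrial scaling RUNX3 alone stayed called higher, and CDKN2A was called lower (-1.995). The median log2 fold change of all genes tested was -1.64 under that scaling. TIMP3 had 8 counts beside 3, SOCS1 20 beside 17, CDKN2A 46 beside 88 and MGMT 1 beside 0, and none passed the test. SFRP1 and SFRP2 had no count in either library.

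**Figure D4:**
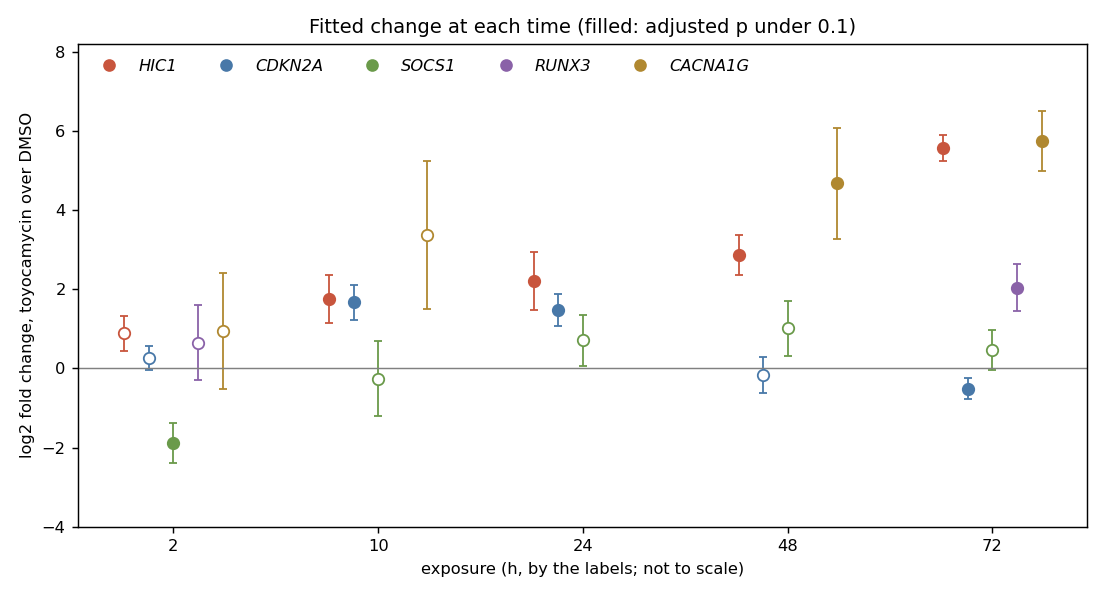
Log2 fold change of toyocamycin over DMSO (vertical axis) at each exposure in h (horizontal axis, evenly spaced) for 5 genes, with bars of 1 SE and filled points for an adjusted p under 0.1; times where an arm had no count, or both arms fewer than 4, are left out. HIC1 goes from 0.89 at 2 h to 5.58 at the last time point, and CDKN2A from 1.67 at 10 h to -0.52.

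The difference between the effects at the last time point and at 2 h was tested in the same fit. It was positive for HIC1 (log2 4.68, SE 0.570, adjusted p = 2.44e-06), SOCS1 (2.35, SE 0.722, adjusted p = 0.00866), TIMP3 (7.34, SE 1.98, adjusted p = 0.00403) and CACNA1G (4.80, SE 2.22, adjusted p = 0.0645) and negative for CDKN2A (-0.79, SE 0.399, adjusted p = 0.0892, edgeR), beside 38% of all genes with a positive and 38.1% with a negative one. The TIMP3 value rests on 0 counts on toyocamycin at 2 h and is no measure of size. CACNA1G and TIMP3 reached the filter in toyocamycin libraries only, so a call of theirs could hardly be negative, and the count of positive calls supports nothing. In DMSO itself SOCS1 fell between these times, from 40 and 31 counts to 12, 7 and 12 (log2 fold change -1.77, SE 0.439, adjusted p = 0.0138, edgeR), beside 11.4% of all genes called lower and 10.2% higher, and no other of the 9 genes was called. The low SOCS1 level at the last time point was thus shared by both arms, which overlapped. On toyocamycin between 48 h and the last time point, HIC1 rose further (log2 fold change 1.70, SE 0.397, adjusted p = 0.00430) and MGMT rose from 1 count (adjusted p = 0.0173, edgeR), beside 19.8% of all genes called higher.

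Other genes reported as methylated in colon cancer were read in the same way. Of 66 such genes, 35 were tested at the last time point, and 28 were called higher and 7 lower, beside 47% and 41.9% of all genes. Of the 28, 19 reached the filter through toyocamycin libraries alone; of the 16 genes that reached it in a DMSO library, 9 were called higher and 7 lower. With all 66 raised to the floor the median log2 ratio was 0.30, below the 1.01 of the 9 genes. In DMSO 39 of the 66 were silent. Of these, 13 (33.3%) had more than 3 counts in every toyocamycin library of the last time point, beside 21.8% of all silent genes. Among the 13 were the Wnt antagonists DKK1 (53, 66 and 60 counts), DKK3 (31, 48 and 35) and SFRP4 (20, 20 and 18). The Wnt antagonist WIF1, also silent in DMSO, had 9, 2 and 0 counts and was not among them. The SFRP family member SFRP5 had 2 counts in each of these libraries. Of the genes with enough counts to be named by size, the 5 that rose most were LOX, a collagen crosslinking enzyme, at 18.6 ± 1.94 CPM beside 0.0805 ± 0.0751, the chromatin remodeler CHD5 at 64.4 ± 4.11 beside 1.48 ± 0.642, the matrix protein THBS1 at 13.5 ± 3.62 beside 1.37 ± 0.181, the cell cycle inhibitor CDKN2B at 59.7 ± 4.34 beside 8.46 ± 0.664, and the Wnt pathway scaffold APC at 154 ± 14.5 beside 36.3 ± 4.09 (SD, n = 3). CDKN2B lies beside CDKN2A on chromosome 9 and moved the other way, with a log2 fold change of 2.85 (SE 0.172, adjusted p = 3.80e-10, edgeR).

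With the same minimum level, the 5 of that list that fell most were TP73, a p53 family member, from 45.4 ± 9.06 to 3.23 ± 0.936 CPM, the epithelial cadherin CDH1 from 382 ± 16.4 to 33.7 ± 2.47, NDRG4 from 40.8 ± 4.93 to 7.91 ± 2.01, the growth factor binding protein IGFBP3 from 31.0 ± 1.68 to 6.23 ± 0.996, and the cytoskeletal gene SEPTIN9 from 335 ± 50.9 to 69.4 ± 8.54 (SD, n = 3). All of them were present at 31.0 CPM or more in DMSO. Genes of this list thus moved in both directions.

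**Figure D5:**
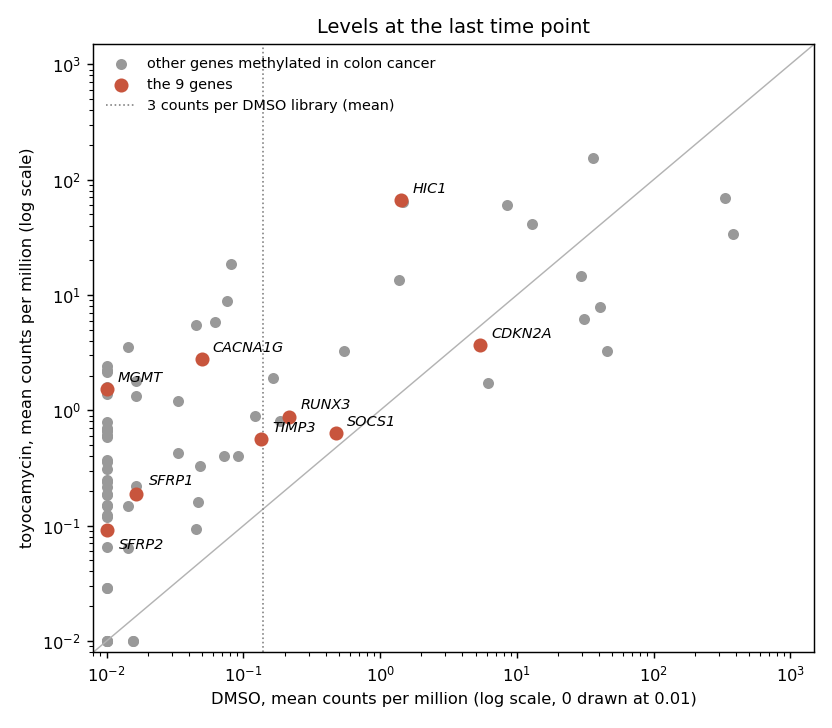
Mean CPM on toyocamycin (vertical axis, log scale) against DMSO (horizontal axis, log scale, 0 drawn at 0.01) at the last time point for the 9 genes (red, named) and 66 other genes methylated in colon cancer (grey); the diagonal marks equal levels and the dotted line the mean of 3 counts per DMSO library. MGMT, at 0 in DMSO, lies at 1.52 on toyocamycin, and CDKN2A lies below the diagonal.

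Close relatives of the 9 genes also moved both ways. Of 24 relatives (other RUNX, SOCS, TIMP, SFRP and T-type channel genes among them), 22 were tested at the last time point. Of these, 15 were called higher (3 of them through toyocamycin libraries alone) and 6 lower, beside 47% and 41.9% of all genes tested. Of the 19 that reached the filter in a DMSO library, 12 were called higher and 6 lower, beside 37.7% and 49.5% of all such genes. The median log2 ratio was 1.30 over all 24 relatives raised to the floor. Of those with a mean log2 CPM of at least 1, the 5 that rose most were the T-type channel gene CACNA1I at 24.3 ± 4.18 CPM beside 0.136 ± 0.0749, SOCS4 at 962 ± 106 beside 32.4 ± 6.27, RUNX1 at 46.3 ± 3.48 beside 2.46 ± 0.247, RUNX2 at 2527 ± 243 beside 163 ± 13.7, and SOCS2 at 47.3 ± 2.38 beside 3.80 ± 0.388 (SD, n = 3). The 5 at this level that fell most were CISH at 0.650 ± 0.260 beside 4.91 ± 0.375, TIMP2 at 10.5 ± 2.45 beside 44.6 ± 2.31, TIMP1 at 117 ± 5.12 beside 237 ± 23.2, SOCS7 at 63.7 ± 12.6 beside 92.3 ± 5.41 and SOCS6 at 50.5 ± 9.52 beside 67.7 ± 7.60 (SD, n = 3). Below this level, the log2 fold change reached 6.37 for SFRP4 (adjusted p = 5.58e-06) and 6.30 for the Wnt antagonist FRZB (adjusted p = 2.45e-07), with 31, 31 and 32 FRZB counts beside 0, 2 and 0. The T-type channel gene CACNA1H fell most of the list, from 81, 78 and 53 counts to 3, 0 and 0 (adjusted p = 4.78e-06, edgeR), the opposite direction to CACNA1G and CACNA1I. Among the RUNX genes, RUNX3 had the smallest log2 fold change, 2.04 beside 4.26 for RUNX1 and 3.99 for RUNX2.

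Genes that write, read and remove DNA methylation were given as a further list of 13. At the last time point 6 of them were called higher and 6 lower, beside 47% and 41.9% of all genes tested. The maintenance methyltransferase DNMT1 fell from 398 ± 23.9 to 23.3 ± 4.14 CPM (SD, n = 3; log2 fold change -4.06, SE 0.156, adjusted p = 3.46e-12, edgeR). UHRF1, which recruits DNMT1 to newly copied DNA, fell from 291 ± 32.3 to 21.1 ± 5.37, and the de novo enzymes DNMT3B and DNMT3A fell from 14.05 ± 0.316 to 0.145 ± 0.251 and from 66.3 ± 2.76 to 15.3 ± 2.40. The glycosylase TDG rose from 29.1 ± 4.99 to 172 ± 22.01 CPM, and of the methylcytosine oxidases TET2 rose from 14.8 ± 1.99 to 33.7 ± 0.633 and TET3 from 28.6 ± 2.84 to 87.6 ± 9.63, while TET1 did not pass the test (1.34 ± 0.623 in DMSO and 2.09 ± 1.01 on toyocamycin; adjusted p = 0.169, edgeR).

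For each of the 5 genes called higher at the last time point, the 2 other tested genes with the most similar log2 level over the 17 libraries were taken. They were AKT1S1 and HRAS for HIC1 (Pearson r 0.972 and 0.970), AQP7 and TRIM71 for CACNA1G (0.971 and 0.970), ABCA13 and PASD1 for MGMT (0.9995 and 0.995), NCF1 and HLA-DPA1 for RUNX3 (0.926 and 0.912), and TMEM132E and RHOH for TIMP3 (0.886 and 0.882). These are the highest values over all tested genes, and the libraries share time, arm and depth. For MGMT they rest on the 4 libraries with more than 1 count, one of which is replicate 2 at 10 h.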

How the data were processed

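Poly(A) RNA of YB5 cells was sequenced in 17 labelled libraries (paired ends). Per the labels and the study's methods, reads were aligned to GRCh38 with STAR 2.7.5a and the authors deposited raw read counts per gene; the strand setting is not given in the sources used here. A deposited table of the authors' own edgeR comparisons was not used. Groups, replicates and batches came from the labels, and 1 column of the count table that matches no labelled library was not used. Nothing says which libraries came from separate cultures, beyond biological triplicates in the extraction protocol, so p-values measure the spread between these libraries.

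Counts (8735465 to 22121364 per library) were filtered with filterByExpr, scaled by TMM and tested with the quasi-likelihood test of edgeR 4.0.16 in R 4.3.3 (legacy mode), 1 coefficient per group; calls needed an adjusted p (Benjamini-Hochberg, over all genes tested) under 0.1. The 14 libraries other than those of 10 h were fitted together, and all 17 for 10 h. The self-test on simulated counts recovered the set changes. It changed few genes, drawn from those well counted in DMSO, so it does not test the scaling when most genes shift. Nor does it cover genes with few DMSO counts, apart from genes switched on from 0. Levels are CPM, counts scaled to the TMM-adjusted library size; per-length levels divide by the union of GENCODE exons. Folds against an arm at 0 use a floor of 3 counts per library, and count ratios exact 95% intervals.

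The 9 genes, the gene lists and the tests were chosen with earlier results of these data known. Every one of the 9 genes is named; of the 66 and 24 other genes, the 5 largest rises and falls at the last time point are, among those called, with a mean log2 CPM of at least 1 and arms that do not overlap; so are the 2 genes most alike to each gene called higher, and counted genes that overlap one of the 9. DKK1, DKK3, SFRP4, SFRP5, WIF1, FRZB, CACNA1H, COL1A1, CD14, PECAM1, PTPRC, KRT20, LGALS4, GPA33 and the methylation genes given with values were chosen after their values were seen. At 2 h, same-numbered libraries deviated together (r = 0.307) and the number is the batch in the labels, so the numbers pair the libraries there. The main fit does not use this pairing. On the libraries of 2 h alone, 6.23% of all genes were called lower and 0.143% higher without the replicate block. With the block the shares were 18.7% and 8.72%.

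Alternatives were DESeq2 size factors, library size alone, mitochondrial scaling, the DESeq2 1.42.0 Wald test, the newer edgeR test, 2 other filters, other libraries in the fit, batch as a term, the replicate block, other thresholds, leaving out each library, and a silent limit of 10 counts; the fit without the block on the same libraries was added after seeing the data. The values of 1 gene of the list on DNA methylation are not reported here.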

Additional observations from a re-analysis of the deposited data

Results flagged for a closer look

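For 5 of the 9 genes the effect of toyocamycin at the last time point differed from the effect at 2 h by the test of the difference itself (edgeR quasi-likelihood test, adjusted over all genes tested), 4 of the 7 tested with a positive and 1 with a negative difference, beside 38% and 38.1% of all genes. The differences, on the log2 scale, were 4.68 for HIC1, 2.35 for SOCS1, 7.34 for TIMP3, 4.80 for CACNA1G and -0.79 for CDKN2A. TIMP3 and CACNA1G reached the filter in toyocamycin libraries only, so a call of theirs could hardly be negative, and the count of positive calls supports nothing. For HIC1 and CACNA1G the arms did not overlap at the last time point (568 to 834 counts beside 15 to 38, and 27 to 34 beside 0 to 3) and overlapped at 2 h, where CACNA1G had at most 4 counts per library. For SOCS1 the difference comes with a fall in DMSO itself, from 40 and 31 counts at 2 h to 12, 7 and 12. For TIMP3 it rests on 0 counts in both toyocamycin libraries of 2 h, so its size has no meaning. For CDKN2A the call was lost without replicate 1 or 2 of either arm at the last time point, replicate 2 of DMSO at 2 h or replicate 1 of toyocamycin at 2 h, over a range of -1.25 to -0.38. No group of the 9 genes held the 4 samples that a search for a single deviating sample needs.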

How the results depend on the processing

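HIC1, CACNA1G and MGMT were called higher at the last time point in every alternative in which they were tested; CACNA1G and MGMT were too low for the filter of at least 10 counts in every library. At the last time point 5 of the genes were called higher, beside 47% of all genes tested. The number was 3 with mitochondrial scaling (29% of all genes) and in a fit of all 17 libraries (42.4%). It was also 3 in the fits of that time alone with the replicate block (45.1%) and without it (45.7%). It was 1 with the stricter filter (41.8%), which left 2 of the genes, and 4 with library size alone (39%). With no filter it was 7 (46%, SFRP1 and SFRP2 added). Leaving out a library gave 4 to 5 (45.2% to 46.7%). CDKN2A was the 1 called lower, beside 41.9% of all genes. It went to 0 with DESeq2 size factors or its Wald test, the stricter filter or a minimum fold of 1.5. The same held for an adjusted p under 0.05, all 17 libraries or the replicate block. In these fits 36% to 46.3% of all genes were called lower. The number was 0 to 1 without a library (41% to 41.5%). At 2 h the 1 called lower was SOCS1, beside 8.42% of all genes. It went to 0 with mitochondrial scaling (0.6% of all genes), the stricter filter (11.3%) or a minimum fold of 1.5 (2.53%). The Wald test (7.97%) and all 17 libraries (4.91%) also gave 0. The log2 fold change of SOCS1 ran from -2.88 to -1.39 when a library was left out. At this time 0 were called higher (0.518%), and 1 (HIC1) with the replicate block (8.72%). At 10 h 3 were called higher, beside 20.4% of all genes. They became 0 with mitochondrial scaling (3.04% of all genes) and 1 in a fit of 10 and 2 h (11.7%). The newer edgeR test (24.3%), no filter (18.8%) and the Wald test (28.5%) gave 5, and batch as a term gave 6 (37.8%). In these fits 0 were called lower. At 24 h the 2 called higher (30.7% of all genes) became 0 with library size alone (15.1%) or mitochondrial scaling (2.98%). At 48 h the 3 called higher (39.2% of all genes) became 1 with mitochondrial scaling (11.2%) or the stricter filter (36.8%). With mitochondrial scaling 1 was called lower, beside 51.2% of all genes. For the difference between the last time point and 2 h, 4 calls were positive, beside 38% of all genes. They became 2 with mitochondrial scaling (19.4%) and 1 with the stricter filter (39.6%). The 1 negative call (38.1% of all genes) became 0 with DESeq2 size factors or its Wald test, or the stricter filter. A minimum fold of 1.5, an adjusted p under 0.05 and all 17 libraries also gave 0. In these fits 32.3% to 42.8% of all genes were called negative. Without a library the difference ran from -1.25 to -0.38 for CDKN2A and from 3.68 to 8.72 for CACNA1G. In DMSO between the times, SOCS1 was the 1 called lower, beside 11.4% of all genes. This became 0 with mitochondrial scaling (0.248%), the stricter filter (13.8%) or all 17 libraries (5.56%). The log2 fold change of SOCS1 ran from -1.94 to -1.56 when a library was left out. On toyocamycin from 48 h to the last time point, 2 were called higher, beside 19.8% of all genes. They became 1 with the stricter filter (22.4%), the Wald test (18.9%) or all 17 libraries (9.98%) and stayed 2 without any 1 library. With library size alone (23% of all genes) or the newer edgeR test (21.7%), 1 was called lower, and 0 to 1 without a library. The cause of these changes was not tested, except that the stricter filter removes genes.

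The sign turned, on the log2 scale, for SOCS1 at the last time point (-0.14 with library size alone, -0.61 with mitochondrial scaling), at 24 h (-0.30 and -1.54) and at 48 h (-0.82 with mitochondrial scaling); for RUNX3 at 24 h (-0.16 and -1.22 with these scalings); and at 24 h with mitochondrial scaling for CDKN2A (-0.80) and HIC1 (-0.051). CDKN2A at 48 h turned to 0.082 with DESeq2 size factors, 0.083 with the Wald test and 0.091 with the stricter filter. Over the libraries left out in turn, the log2 fold change at 2 h ran from -0.13 to 0.74 for CDKN2A, -0.99 to 1.71 for RUNX3 and -2.94 to 2.07 for CACNA1G, and at 10 h from -1.06 to 0.21 for SOCS1 and -1.01 to 4.36 for CACNA1G. With a silent limit of 10 counts, 6870 genes were silent, and the shares above it in every toyocamycin library of the 5 times in order were 0.291%, 1.85%, 6.01%, 15.9% and 16.5%, beside 0.474%, 4.85%, 9.11%, 23.6% and 21.8% with a limit of 3; 6 of the 9 genes were then silent, and 2 of them, CACNA1G and MGMT, were above 10 at the last time point. At the last time point the same-numbered libraries did not deviate together (r = -0.105, 0.0427 and -0.0876) and share only a number; the block changed the call of CDKN2A alone, from an adjusted p of 0.0902 in the same libraries without it to 0.150 (edgeR).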
